A study of Mus musculus with 15 samples.

Results

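Red cell transcripts of skeletal muscle were followed through 6 genes, the α-globins Hba-a1 and Hba-a2, the β-globins Hbb-bs and Hbb-bt, the haem enzyme gene Alas2 and the membrane protein gene Slc4a1. These 6, of 39179 genes in each count table, were selected on their measured levels in the individual mice, so their levels and differences are a description. Where the number of them past a threshold is given, it stands beside the share over all genes, tests nothing and supports nothing. All 6 were found in all 15 tables. Quadriceps muscle RNA came from 8 mice aged 3 mo, 4 of each genotype, and from 7 mice aged 19 mo, of which 3 were wild-type and 4 V338Y. V338Y mice were homozygous for an amino acid exchange in the mitochondrial ribosomal protein MRPS5 in every cell, wild-type mice carried the unaltered gene, and all were on the C57BL/6 background. Mice keep the numbers of their labels, 1 to 4 in both groups at 3 mo, then 2, 4 and 5 in the wild type and 2, 3, 4 and 5 in V338Y at 19 mo.

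Haemoglobin is a tetramer of α- and β-globin chains, each holding a haem. Alas2 encodes the erythroid 5-aminolevulinate synthase, which starts haem synthesis in red cell precursors, and Slc4a1 encodes band 3, the anion exchanger that anchors the red cell membrane to its skeleton. Red cells leave the bone marrow as reticulocytes that still hold globin mRNA and lose it as they mature, while most other erythroid transcripts are made earlier, in nucleated precursors. Muscle fibres themselves are known for a different globin, myoglobin. In bulk tissue, fewer red cells and less RNA per cell cannot be told apart.

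All libraries held muscle RNA, with 8250653 to 18968132 estimated counts each, and values are CPM, counts relative to the library total after scaling by the trimmed mean of M-values (TMM). The 8 muscle markers summed to between 167091 and 319487 CPM, and the defining markers of the muscle label were present in every mouse. Mrps5 itself stood at 14.9 to 27.5 CPM, and gene counts do not show the amino acid exchange. The age groups differed in sex chromosome transcripts: Ddx3y, on the Y chromosome, stood at 162.9 to 202.3 CPM in the 8 mice of 3 mo and at 0.0826 CPM or less in the 7 mice of 19 mo, while Xist, made from the inactive X chromosome, stood at 0.574 CPM or less and at 505.8 CPM or more. The study's methods list the 3 mo animals as female. Age and sex therefore cannot be told apart in any comparison of 19 mo with 3 mo below. V338Y mouse 5 of 19 mo stood apart from the other 14 mice in many blood cell genes. Results of the globins and the erythroid lists that rest on it are given with and without it.

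The α-globin genes are near copies that lie side by side on chromosome 11, Hba-a1 at chr11:32283511-32284465 and Hba-a2 at chr11:32296489-32297298, both on the plus strand (GRCm38, GENCODE M21). The adult β-globin genes lie on the minus strand of chromosome 7, Hbb-bt at chr7:103812524-103813996 and Hbb-bs at chr7:103826534-103828096. Alas2 lies on the X chromosome at chrX:150547375-150570638 on the plus strand and Slc4a1 at chr11:102348824-102366203 on the minus strand. The letters upstream of the RefSeq transcription start are shown because the globins and Alas2 moved together between mice, as described further on. They come from RefSeq (GRCm38.p6), which gave a promoter for 5 of the 6 genes, and capitals mark matches on either strand to CCAAT or CACCC or TATAA or the GATA words AGATAA or AGATAG or TGATAA or TGATAG. The stretches are Hba-a2 at chr11:32296369-32296488, Hbb-bs at chr7:103827994-103828023, Hbb-bt at chr7:103813989-103814018 and Alas2 at chrX:150547297-150547374, each read 5′ to 3′ on the strand of its gene. The GENCODE models of the β-globins start farther upstream than those of RefSeq, so all 30 bases shown for Hbb-bs and 8 of those for Hbb-bt lie inside the GENCODE gene.
Hba-a2: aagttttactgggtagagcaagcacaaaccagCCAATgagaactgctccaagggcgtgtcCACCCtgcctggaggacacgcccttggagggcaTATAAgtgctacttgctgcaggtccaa
Hbb-bs: agccaCACCCtggtaagggCCAATctgctc
Hbb-bt: gggtaaCACCCtggcATTGGCCAATctgct
Alas2: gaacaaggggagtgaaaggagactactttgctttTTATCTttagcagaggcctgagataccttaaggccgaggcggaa
CACCC is a word bound by the erythroid factor KLF1 and the GATA words by GATA1, both known regulators of red cell genes. In the 150 bases upstream of the start, Hba-a1, Hba-a2, Hbb-bs and Hbb-bt each held CACCC as well as CCAAT and a TATAA word. The same window of Alas2 held 1 GATA word, whose first base lay 86 bases upstream, and 3 CACCC words on the opposite strand, with neither CCAAT nor TATAA. Among 32851 RefSeq promoter windows of that length, 37.4% held CACCC, 24.5% CCAAT, 14.2% TATAA and 16% a GATA word. These are matches of letters and not measured binding sites. Hba-a1 and Hba-a2 shared an unbroken run of 147 bases in that window, against a longest shared run of 14 bases between Hbb-bs and Hbb-bt.

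The copies also share much of their transcripts. Of all stretches as long as a read, 50.5% of those in the Hba-a1 transcript also occurred in Hba-a2, and 60.6% of those in Hbb-bs occurred in Hbb-bt. The authors' RSEM counts divide such reads between copies by estimation, so the division between paired copies is uncertain, whereas the sum of the 4 globins is not touched by it. No such stretch of Alas2 or Slc4a1 occurred in another gene.

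Per kb of transcript, the globins were the most abundant of the 6 genes and Slc4a1 the least. Hbb-bs had a median of 163.3 CPM per kb over 15 mice, with a range of 87 to 706.2. Hba-a1 followed with a median of 41.6 (23.6 to 176.1), Hba-a2 with 35.9 (20.4 to 138.4) and Hbb-bt with 26.4 (14.9 to 155.6). The ranges of these last 3 genes overlapped over most of their length. Alas2 had a median of 2.32 CPM per kb (1.55 to 14.8) and Slc4a1 of 0.0488 (0 to 13.5). All 4 globins together took 0.00922% to 0.0848% of the counts of a library.

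At 3 mo, globin levels did not separate the genotypes. Hbb-bs, the more abundant adult β-globin, stood at 92.2, 105.6, 102.5 and 198.3 CPM in wild-type mice 1 to 4 and at 151.3, 121.8, 193.3 and 101.9 CPM in V338Y mice 1 to 4. Hba-a1 stood at 26.2, 30.1, 29.1 and 46.4 CPM in the wild type and at 41.1, 34.3, 50.9 and 27.3 CPM in V338Y. Wild-type mouse 4 lay well above the other wild-type mice in both genes, V338Y mice 1 and 3 were the higher pair of their group, and the genotypes overlapped throughout. Hba-a2 stood at 18.7, 19.5, 19.9 and 34.8 CPM in the wild type and at 30.6, 24.8, 36.5 and 20.3 CPM in V338Y. Hbb-bt stood at 15.6, 15.7, 18.6 and 35.1 CPM in the wild type and at 28.5, 21.1, 29.8 and 10.5 CPM in V338Y. The order of the mice was much the same for every globin, with wild-type mouse 4 and V338Y mice 1 and 3 on top.

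Alas2 and Slc4a1 likewise overlapped between genotypes at 3 mo. Alas2 stood at 4.1, 5.1, 4.51 and 6.79 CPM in wild-type mice 1 to 4, and the V338Y levels were 5.28, 3.62, 7.77 and 3.68 CPM. Slc4a1 was close to nothing, at 0.0911, 0.142, 0.199 and 0.634 CPM in the wild type and 0.172, 0.0952, 0.165 and 0 CPM in V338Y. The count of 0 in V338Y mouse 4 allows a level of up to 0.345 CPM, the worth of 3 counts. Wild-type mouse 4 was again the highest of its group in both genes.

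Fitted differences between V338Y and wild type at 3 mo reached at most 0.29 on the log2 scale. They were 0.23 ± 0.21 (SE) for Hba-a1, 0.29 ± 0.22 for Hba-a2, 0.20 ± 0.25 for Hbb-bs, 0.11 ± 0.32 for Hbb-bt and 0.01 ± 0.25 for Alas2, with n = 4 in each group. Slc4a1 had too few counts and was not fitted. The direction for Hbb-bt and Alas2 depended on which mouse was left out. None of the 5 fitted genes was called by edgeR's quasi-likelihood test at an adjusted p under 0.05, against 0.0750% of all genes, and 0 of 6 had groups without overlap, against 4.71% of genes in either direction. The summed globin differed by 0.21 ± 0.31 (SE) on the log2 scale.

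At 19 mo the V338Y mice split into a pair with high and a pair with low globin levels. Hbb-bs stood at 54.7, 89.7 and 70.8 CPM in wild-type mice 2, 4 and 5, and the V338Y mice 2, 3, 4 and 5 had 259.8, 99, 98.6 and 443.5 CPM. Hba-a1 stood at 16.5, 26.1 and 22.9 CPM in the wild type and at 71.5, 24.6, 23.7 and 123.1 CPM in V338Y. V338Y mice 2 and 5 lay far above all wild-type mice, while V338Y mice 3 and 4 lay inside the wild-type range for Hba-a1 and just above it for Hbb-bs. Hba-a2 stood at 11.3, 17.5 and 14.2 CPM in the wild type and at 42.5, 16.5, 16.1 and 76.7 CPM in V338Y. Hbb-bt stood at 11.5, 12.7 and 12 CPM in the wild type and at 47.4, 12.7, 19 and 109.4 CPM in V338Y. Both genes repeated the split, with mouse 5 the highest and mouse 2 the next.

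**Figure D1:**
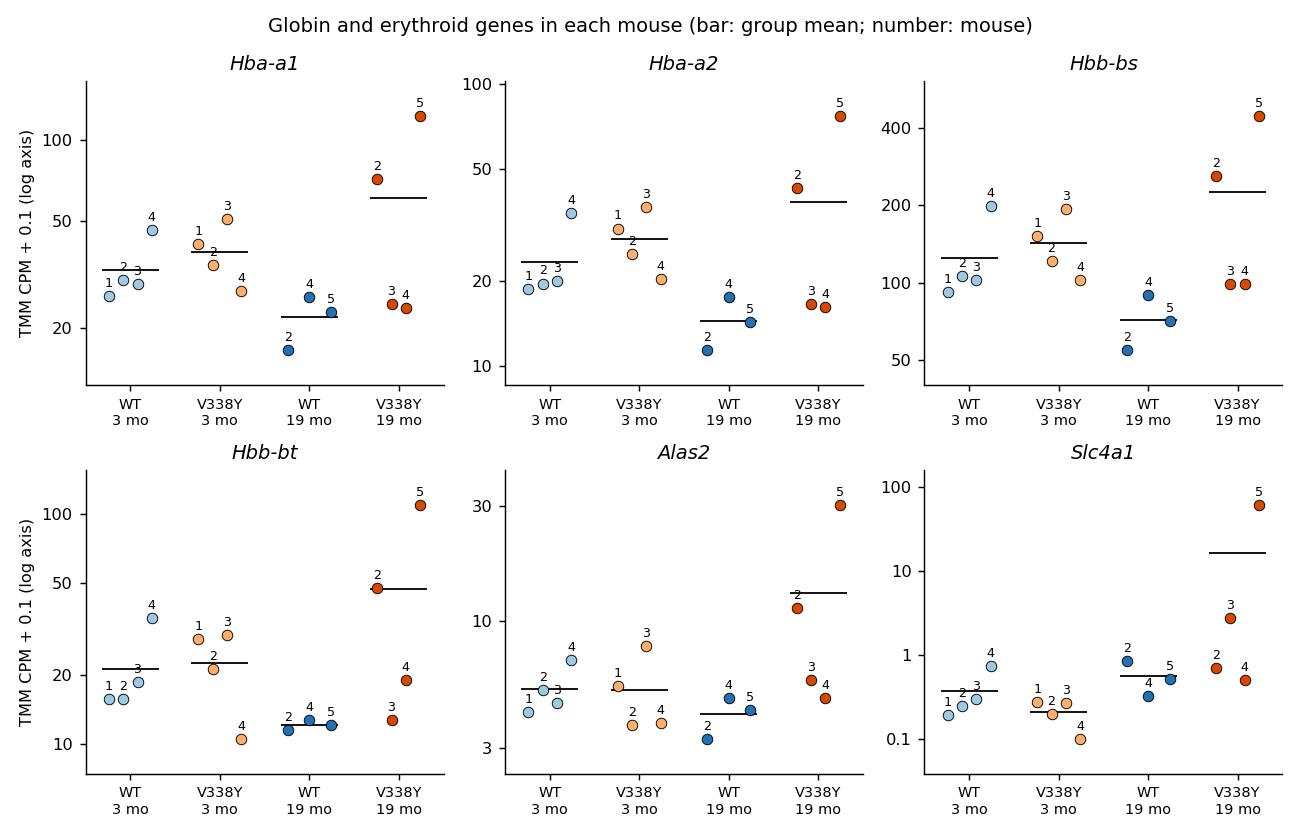
Level of each of the 6 genes in every mouse (y axis, TMM CPM + 0.1, log axis) by group (x axis); points are mice with their numbers and bars are group means. In all 4 globins and Alas2 the V338Y mice 2 and 5 of 19 mo sit highest, while in Slc4a1 only mouse 5, at 61.1 CPM, and mouse 3, at 2.61 CPM, stand clear of the rest.

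Alas2 was high in the same V338Y mice as the globins, whereas Slc4a1 was high in mouse 5 but not in mouse 2. Alas2 stood at 3.17, 4.73 and 4.21 CPM in wild-type mice 2, 4 and 5 of 19 mo, while V338Y mice 2, 3, 4 and 5 had 11.2, 5.63, 4.71 and 30.1 CPM. Slc4a1 stood at 0.745, 0.222 and 0.413 CPM in the wild type and at 0.601, 2.61, 0.401 and 61.1 CPM in V338Y. Mouse 5 carried 952 Slc4a1 counts, mouse 3 carried 39 and mouse 2 only 6, although mouse 2 had the next highest globin level of all 15 mice. Slc4a1 thus lay within the wild-type range in V338Y mice 2 and 4 and above it in mice 3 and 5.

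The fitted differences between V338Y and wild type at 19 mo were positive for all 6 genes. On the log2 scale they were 1.51 ± 0.58 (SE) for Hba-a1, 1.44 ± 0.55 for Hba-a2, 1.68 ± 0.54 for Hbb-bs and 2.0 ± 0.68 for Hbb-bt, with 3 wild-type and 4 V338Y mice. Alas2 differed by 1.72 ± 0.63 and Slc4a1 by 5.12 ± 1.91. Slc4a1 entered this fit only through V338Y mice 3 and 5, which reached the count minimum of 10. Hbb-bs was the 1 gene of 6 whose groups did not overlap, against 9.78% of all genes in either direction. By edgeR's quasi-likelihood test 0 of 6 were called, against 0.0434% of all genes, which is 6 of 13833.

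Leaving out V338Y mouse 5 lowered these differences to 0.90 ± 0.42 (SE) for Hba-a1, 0.83 ± 0.38 for Hba-a2, 1.12 ± 0.39 for Hbb-bs, 1.15 ± 0.43 for Hbb-bt and 0.86 ± 0.34 for Alas2. Slc4a1 could then no longer be fitted. The summed globin was 94, 146.1 and 119.9 CPM in the wild type and 421.3, 152.7, 157.3 and 752.7 CPM in V338Y, a difference of 1.32 ± 0.59 (SE) on the log2 scale. It came to 0.87 ± 0.51 without mouse 5 and to 0.39 ± 0.18 without mice 2 and 5, a choice made after the values were seen. With mouse number as a block, which paired mice 2, 4 and 5, it came to 1.64 ± 0.78, the blocked fits of the 4 globins ranged from 1.5 to 2.01, and calls over all genes grew from 6 to 110 (0.795%), with none of the 6 genes among them.

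**Figure D2:**
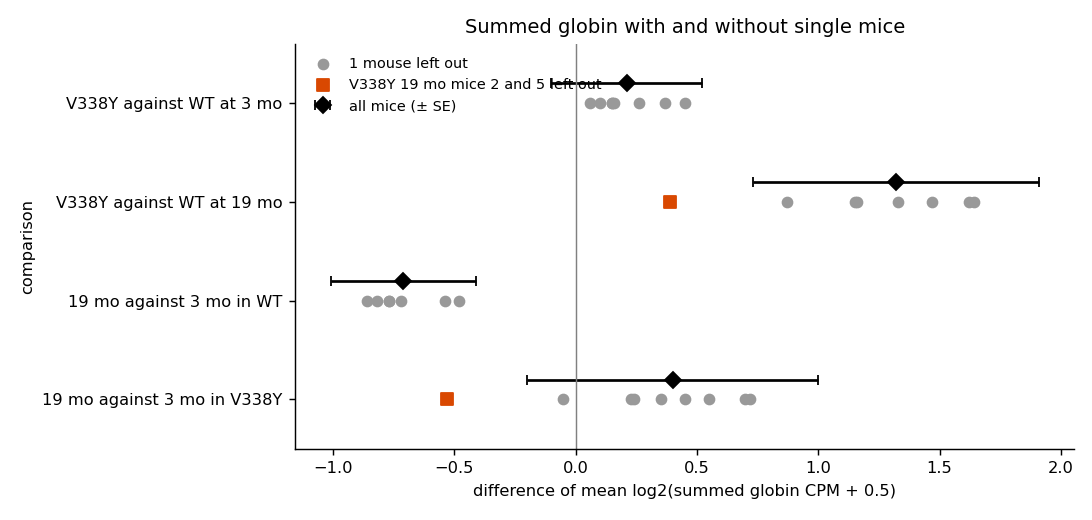
Difference in mean log2 summed globin (x axis) for the 4 comparisons (y axis); black diamonds are all mice with their SE, grey points leave out 1 mouse each and orange squares leave out V338Y mice 2 and 5 of 19 mo. At 19 mo the difference of 1.32 between genotypes falls to 0.39 without mice 2 and 5, and the difference of 0.40 between ages in V338Y becomes -0.53.

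From 3 to 19 mo, globin levels were lower in the wild type. The summed globin was 152.7, 170.9, 170.1 and 314.6 CPM in mice 1 to 4 at 3 mo against 94 to 146.1 CPM at 19 mo, a difference of -0.71 ± 0.30 (SE) on the log2 scale. The log2 differences were -0.59 ± 0.22 for Hba-a1, -0.69 ± 0.24 for Hba-a2, -0.79 ± 0.27 for Hbb-bs and -0.81 ± 0.27 for Hbb-bt. All 4 globins, of the 6 genes, were lower at 19 mo without overlap, against 43.4% of all genes that did not overlap in either direction. Alas2 differed by -0.34 ± 0.22 and overlapped between the ages, and Slc4a1 was not fitted. Past an adjusted p of 0.05 in edgeR were 2 of the 5 fitted genes, beside 36.2% of all genes, a count that follows from the values the genes were chosen by. Without mouse 4 of 3 mo, the highest of its group, the summed globin differed by -0.48 ± 0.19.

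In V338Y, the same step in age gave no common direction among mice. The summed globin was 251.5, 201.9, 310.6 and 159.9 CPM in mice 1 to 4 at 3 mo, so mice 2 and 5 of 19 mo lay above and mice 3 and 4 below all V338Y mice of 3 mo. The difference was 0.40 ± 0.60 (SE) on the log2 scale, and -0.05 ± 0.52 without mouse 5. The fitted differences were 0.67 ± 0.48 for Hba-a1, 0.45 ± 0.46 for Hba-a2, 0.68 ± 0.45 for Hbb-bs, 1.07 ± 0.60 for Hbb-bt and 1.35 ± 0.55 for Alas2. Slc4a1 differed by 6.98 ± 1.97, having entered the fit only through mice 3 and 5 of 19 mo. Past an adjusted p of 0.05 in edgeR was 1 of the 6 genes, beside 46.9% of all genes, and 1 of the 6 did not overlap, beside 42.2% of all genes in either direction. Slc4a1 could not be fitted without mouse 5 or without mouse 3 of 19 mo, since too few mice then reached the count minimum.

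The change with age was set between genotypes by an interaction term over all 15 mice. The interaction was 1.25 ± 0.62 (SE, log2) for Hba-a1, 1.13 ± 0.61 for Hba-a2, 1.46 ± 0.61 for Hbb-bs and 1.87 ± 0.79 for Hbb-bt. For Alas2 it was 1.69 ± 0.71 and for Slc4a1 6.10 ± 3.18. By edgeR's quasi-likelihood test 0 of 6 were called, as was 0.00% of all genes, with 1361 of 14128 genes at an unadjusted p under 0.05 and 26 called by DESeq2. Without mouse 5 the interaction fell to between 0.55 and 1.05 for the globins and to 0.85 for Alas2.

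**Figure D3:**
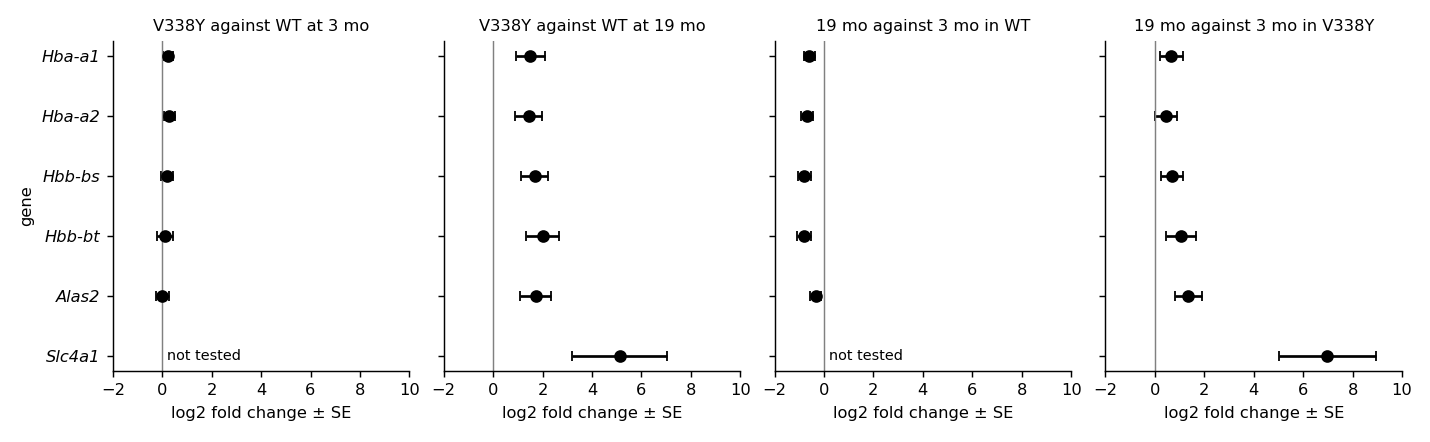
Log2 fold change with its SE (x axis) of each of the 6 genes (y axis) in the 4 comparisons. V338Y against wild type at 19 mo lies to the right of 0 for all 6 genes, from 1.44 for Hba-a2 to 5.12 for Slc4a1, and 19 mo against 3 mo in the wild type lies to the left of 0 for the 5 fitted genes.

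Within a library, globin and Alas2 counts kept a narrower ratio than globin and Slc4a1 counts. Alas2 made up 1.76% to 3.84% of the Alas2 and globin counts in all 15 mice, with 1.76% to 2.9% at 3 mo and 2.59% to 3.84% at 19 mo. Its share was 2.59% (exact Clopper-Pearson 95% interval 2.14 to 3.11) in V338Y mouse 2 and 3.84% (3.51 to 4.2) in V338Y mouse 5 of 19 mo. The Slc4a1 share of Slc4a1 and globin counts was 7.51% (7.06 to 7.99) in V338Y mouse 5, 1.68% (1.2 to 2.29) in mouse 3 and 0.142% (0.0523 to 0.31) in mouse 2. In the remaining mice it ran from 0% to 0.787%, the latter in wild-type mouse 2 of 19 mo. V338Y mice 2 and 5, alike in having high globin, had intervals of the Slc4a1 share that did not overlap. Their intervals of the Alas2 share did not overlap either, and all these intervals cover counting error only. Slc4a1 was elevated in mouse 3 without elevated globin.

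The share of each copy among the globin chains differed between mice more for the β- than for the α-globins. Hba-a1 held 57.1% to 62.7% of α-globin counts. Hbb-bt held 9.32% to 19.8% of β-globin counts, lowest in V338Y mouse 4 of 3 mo and highest in V338Y mouse 5 of 19 mo. Per kb, α- to β-globin stood at 0.343 to 0.45 in all mice. It was 0.343 to 0.372 in the 4 V338Y mice of 19 mo and 0.426 to 0.45 in the 3 wild-type mice of that age. At 3 mo it was 0.353 to 0.422 in the wild type and 0.396 to 0.427 in V338Y, with overlap. This ratio was not tested. The embryonic and minor globins were next to absent, with 0 counts over all 15 mice for Hba-x, Hbb-y and Hbb-bh1, 1 for Hbb-bh2, 2 for Hbq1a and 3 for Hbq1b.

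**Figure D4:**
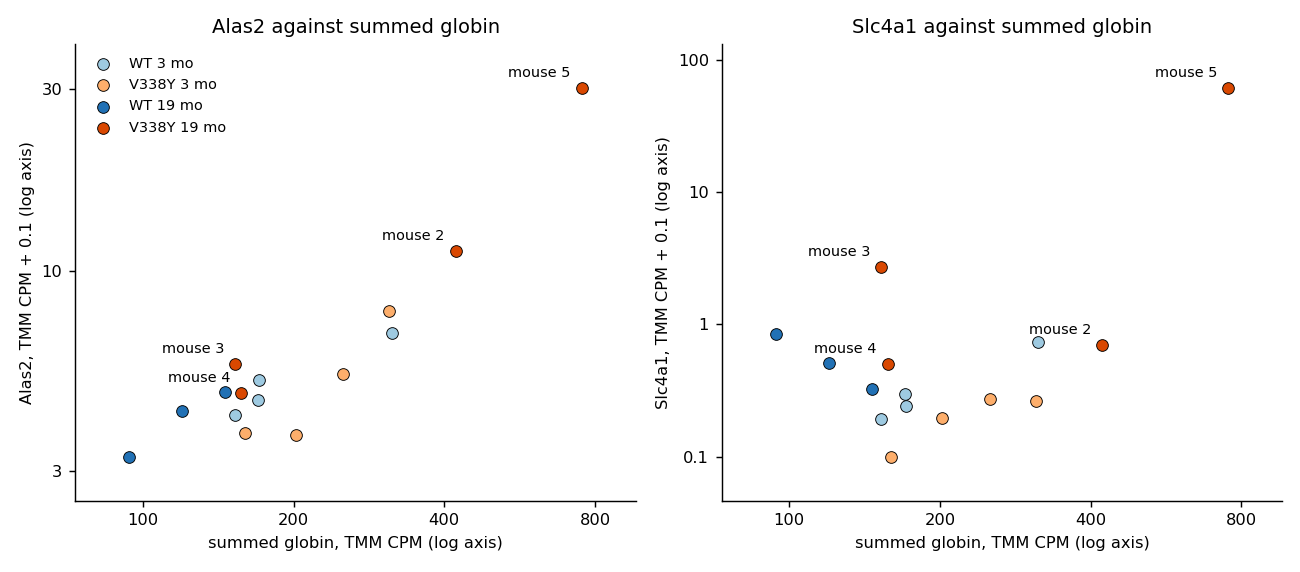
Alas2 (left) and Slc4a1 (right) level (y axes, TMM CPM + 0.1, log axes) against the summed globin level (x axes, TMM CPM, log axes); each point is 1 of 15 mice, coloured by group, with the 4 V338Y mice of 19 mo named. Alas2 climbs with globin through mouse 2 at 11.2 CPM to mouse 5 at 30.1 CPM, whereas Slc4a1 in mouse 2, at 0.601 CPM, stays level with mice of low globin.

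Over 15 mice, log2 Alas2 followed the log2 summed globin with a Pearson correlation of 0.913, and 0.857 without V338Y mouse 5. Slc4a1 followed it with 0.606, and with -0.076 without mouse 5. Among 12825 genes with a mean of at least 1 CPM, those most like the summed globin, the 6 genes left out, included Tm6sf1 (0.850), Abcg2 (0.819), Fkbp2 (0.812), Hist1h1a (0.805), Syn2 (0.802), Dck (0.798), Ube2l6 (0.790), Ncf1 (0.787) and Lmo2 (0.781). Ube2l6, a ubiquitin-conjugating enzyme gene, was on the list of late erythroid genes and Lmo2, which encodes a partner of GATA1, on the list of early ones. After group means were subtracted, the most alike included Micall2 (0.893), Abcg2 (0.879), Arpc3, Tubb2a, Kcne4, Prdx2 (0.860), 2810025M15Rik, Rsad2 and Hmgn2 (0.858). Prdx2 encodes a peroxiredoxin abundant in red cells and Abcg2 a transporter. Without mouse 5 the order changed, and AW112010 (0.893) came first. All points share depth and tissue make-up, and the myoglobin gene Mb, a gene of muscle fibres, also reached 0.610.

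Genes of nucleated red cell precursors were read from lists of late and early erythroid genes, of which 21 of 22 and all 16 names matched an identifier. V338Y mouse 5 was the highest of the 15 mice for 18 of 21 late and 12 of 16 early genes. Klf1, the gene of the erythroid factor that binds CACCC, had 38 counts in mouse 5 and 0 to 2 elsewhere. Gata1 had 22 counts in mouse 5 and 0 to 3 elsewhere. Cldn13, chosen after its values were seen, had 31 counts in mouse 5 and 0 in the other 14 mice. The animal with the highest Slc4a1 thus also had the highest counts of these precursor genes. In V338Y mouse 2, Klf1 and Gata1 stood at 0 and Epor, the erythropoietin receptor gene, at 0.701 CPM, all near the other mice. Mouse 2 was second only to mouse 5 for Tent5c (9.51 CPM), Car2 (8.81 CPM), Lmo2 (7.81 CPM) and Ube2l6 (5.1 CPM). It was the lowest of the 15 mice for Xpo7, Bnip3l, Sox6 and Slc25a38.

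**Figure D5:**
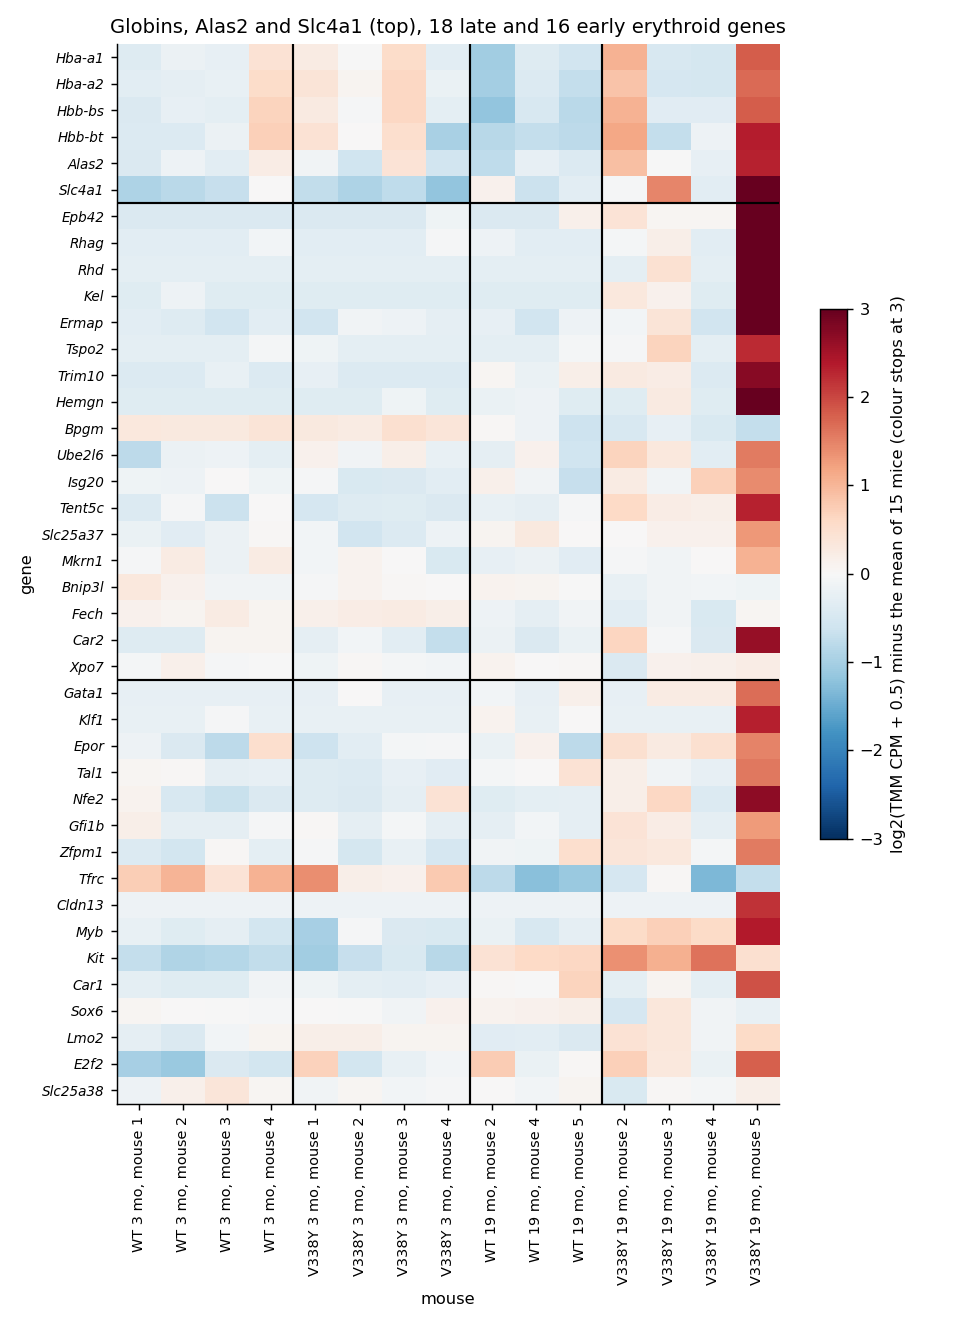
Log2(TMM CPM + 0.5) of the 6 genes, 18 late and 16 early erythroid genes (y axis) in each of 15 mice (x axis), as the difference from the mean of the 15 mice; red is higher, blue lower, and colours stop at a difference of 3. The column of V338Y mouse 5 of 19 mo is the highest of the 15 for 15 of 18 late and 12 of 16 early genes shown. V338Y mouse 2 of 19 mo is red in the globins, Alas2 and Kit, and also in Tent5c, Car2, Ube2l6 and Lmo2.

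Between genotypes the erythroid lists gave no call. At 19 mo 22 of the 37 genes were tested, 18 had higher estimates in V338Y, and their median log2 difference was 0.71 against 0.008 for all genes. By edgeR's quasi-likelihood test with Benjamini-Hochberg adjustment 0 of 22 were called, beside 6 of all 13833 genes. At an unadjusted p under 0.05 in edgeR were 8 of the 22, beside 1235 of all genes. DESeq2 also called 0 of 22, beside 62 of all genes. Groups did not overlap for 6 of the 22, 5 of them higher in V338Y, against 9.78% of all genes in either direction. Lmo2 differed by 0.78 ± 0.19 (SE) and the progenitor factor gene Myb by 2.70 ± 0.73, with adjusted p of 0.483 and 0.511 from edgeR; both were picked as those with the smallest p. Myb entered this fit only through the V338Y mice. Without mouse 5 Lmo2 differed by 0.69 ± 0.20 and Myb by 1.76 ± 0.39, and the median was 0.26, with 13 of 21 higher. At 3 mo 0 of 19 were called by edgeR, beside 10 of all 13333 genes, and the median was -0.03. There 2 of 19 had an unadjusted p under 0.05 in edgeR, beside 1293 of all genes. DESeq2 called 0 of 19, beside 66 of all genes. The interaction called 0 of 22 by edgeR, beside 0 of all 14128 genes. At an unadjusted p under 0.05 were 6 of 22, beside 1361 of all genes. DESeq2 called 0 of 22 for the interaction, beside 26 of all genes.

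With age, erythroid list genes were called in both directions. In the edgeR fit used throughout, with no mouse left out, their share was no larger than that of genes at large. In the wild type 2 of 20 rose and 3 fell by edgeR's quasi-likelihood test, against 36.2% of all genes called in either direction. Kit, a growth factor receptor of progenitors and mast cells, rose by 1.69 ± 0.20 (SE, log2) and the cell cycle factor gene E2f2 by 1.23 ± 0.33. Tfrc, the transferrin receptor through which cells take up iron, fell by 1.87 ± 0.18, Bpgm, the enzyme of 2,3-bisphosphoglycerate synthesis in red cells, fell by 0.54 ± 0.14 and Fech, which inserts iron into haem, fell by 0.32 ± 0.08. The edgeR adjusted p of these 5 genes lay between 0.000182 for Tfrc and 0.0184 for E2f2.

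In V338Y 7 of 22 list genes rose with age and 3 fell by edgeR's quasi-likelihood test, against 46.9% of all genes called in either direction. DESeq2 called 8 up and 3 down, a larger share than its 45.5% of all genes. Kit rose by 2.31 ± 0.31 (SE, log2), Myb by 3.19 ± 0.82 and Tent5c by 1.68 ± 0.48, with edgeR adjusted p of 0.000459, 0.011 and 0.0169. Isg20, Slc25a37, the mitochondrial iron importer gene, and Zfpm1, a GATA1 cofactor gene, rose as well. Of the 7 genes, 3, Myb and Isg20 among them, entered this fit only through the mice of 19 mo. The calls of these 3 are a description and support nothing. Bpgm fell by 0.81 ± 0.11, Tfrc by 1.26 ± 0.33 and Fech by 0.39 ± 0.11. Without mouse 5, 5 of 21 rose and 3 fell, beside 47.1% of all genes called in either direction. Without this mouse Kit rose by 2.52 ± 0.25, Myb by 2.28 ± 0.64 and Tent5c by 0.86 ± 0.16. Slc25a37 rose by 0.41 ± 0.13 without it against 0.83 ± 0.28 with it. Isg20 and Zfpm1 were no longer called by edgeR without it (adjusted p = 0.0808 and 0.0633). The median over the tested list genes was 0.87 with mouse 5 and 0.33 without it, against 0.072 and 0.053 for all genes.

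Haem synthesis genes shared by all cells were called mostly downwards with age. In the wild type 6 of 8 fell and 0 rose by edgeR, where 2435 of all 13657 genes fell: Alas1, the housekeeping form of the enzyme that Alas2 encodes, fell by 1.04 ± 0.11 (SE, log2), Urod by 0.42 ± 0.09, Uros by 0.56 ± 0.13 and Alad by 0.56 ± 0.14, and Fech was also among the 6. In V338Y 4 of 8 fell, where 3116 of all 13868 genes fell. They were Alas1, by 0.69 ± 0.15, Uros, by 0.40 ± 0.10, Fech, by 0.39 ± 0.11, and Urod, by 0.31 ± 0.11, while Ppox rose by 0.64 ± 0.12. Without mouse 5, 6 of 8 fell and 1 rose, beside 47.1% of all genes called in either direction. The edgeR adjusted p of the 5 genes ran from 0.00247 for Ppox to 0.0386 for Urod. V338Y mouse 5 was the highest of 15 mice for 3 of the 8 genes. Between genotypes 0 of 8 were called at either age by edgeR or by DESeq2, with 0 of 8 at an unadjusted p under 0.05. Over all genes edgeR called 0.0750% at 3 mo and 0.0434% at 19 mo.

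Of the red cell membrane skeleton list, 14 genes, 9 were tested in the age comparisons. By edgeR the β-spectrin gene Sptb, also a muscle gene, rose by 0.43 ± 0.10 (SE, log2) in the wild type. It was the only call there, beside 36.2% of all genes called in either direction. In V338Y 2 rose, the dematin gene Dmtn (1.38 ± 0.44) among them, and Tmod1 fell by 0.42 ± 0.16, beside 46.9% of all genes called. Without mouse 5 again 2 rose but 0 fell, beside 47.1% of all genes. Genotypes gave 0 calls at either age by edgeR and by DESeq2, where edgeR called 0.0750% of all genes at 3 mo and 0.0434% at 19 mo. At an unadjusted p under 0.05 in edgeR were 0 genes of the list at 3 mo and 2 at 19 mo. Of all genes, 1293 of 13333 and 1235 of 13833 were. Mouse 5 was the highest for 9 of the 14 genes, while the summed level of the list was 905.1 CPM in it and 1061 CPM in V338Y mouse 3. The summed level thus did not follow the globins across mice.

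Among genes that clear free haemoglobin, haem and iron, 2 of 12 rose and 4 fell with age in the wild type by edgeR, against 36.2% of all genes called in either direction. Hp, encoding haptoglobin, which binds free haemoglobin, fell by 2.83 ± 0.26 (SE, log2) and Hpx, encoding the haem-binding haemopexin, by 5.80 ± 1.42. Slc48a1, a haem transporter gene, fell by 0.45 ± 0.13, and Slc40a1, the iron exporter gene, by 0.48 ± 0.14. Lrp1, a receptor for haem bound to haemopexin, rose by 0.63 ± 0.13 and Cd163, the macrophage receptor for haemoglobin bound to haptoglobin, by 0.60 ± 0.16. In V338Y Lrp1 (0.98 ± 0.14) and Cd163 (0.68 ± 0.14) rose and Slc48a1 (-0.45 ± 0.10) and Blvra (-0.41 ± 0.12) fell, beside 46.9% of all genes called. Without mouse 5 there were 3 calls in each direction, beside 47.1% of all genes. Hpx varied widely within groups, with 15, 76, 572 and 53 counts in wild-type mice 1 to 4 of 3 mo against 1, 6 and 2 counts at 19 mo. Between genotypes 0 of 12 were called by edgeR at either age, beside 0.0750% of all genes at 3 mo and 0.0434% at 19 mo. At an unadjusted p under 0.05 in edgeR were 4 of 12 at 3 mo, beside 1293 of all 13333 genes, and DESeq2 called 0. At 19 mo 3 of 12 were, beside 1235 of all 13833 genes, and DESeq2 called 1. That gene was Hp, which had 154, 111 and 76 counts in wild-type mice 2, 4 and 5 of 19 mo and 189, 154, 168 and 438 in V338Y mice 2, 3, 4 and 5, a log2 difference of 1.24 ± 0.32 (SE, edgeR adjusted p = 0.504). Hp was also the 1 gene called by edgeR with mouse number as a block, and it was highest in mouse 5 among the 19 mo mice.

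Neutrophil and most platelet markers were highest in mouse 5 along with the erythroid genes. Of the other cell types, mouse 5 was highest for 3 of 8 T cell and 1 of 8 endothelial markers. It was highest for 0 of 8 B cell and 0 of 8 macrophage markers. The part of other blood and tissue cells in the results was not tested. All 13 neutrophil markers were highest in mouse 5, and their summed level was 685.2 CPM there, 32 CPM in mouse 3, 9.53 CPM in mouse 4 and 6.51 CPM in mouse 2, against 4.29 to 8.02 CPM in the wild type of 19 mo and 0.638 to 3.71 CPM at 3 mo. Mpo, a granule enzyme gene of immature granulocytes, stood at 51.3 CPM in mouse 5 and 1.07 CPM in mouse 3, at 0.1 CPM in mouse 4 and at 0 in the other 12 mice. S100a8, abundant in mature neutrophils, stood at 163.5 CPM in mouse 5, at 6.5 CPM in mouse 3 and at 1.49 CPM or less in the other 13 mice. Mice 5 and 3 were thus the highest for Slc4a1, Mpo and S100a8 alike. In mouse 2, with high globin, both neutrophil markers lay within the range of the other mice.

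Platelet markers were highest in mouse 5 for 11 of 12, with a sum of 48.4 CPM there, 15.9, 17.8 and 10.9 CPM in V338Y mice 2, 3 and 4, 9.56 to 11.8 CPM in the wild type of 19 mo and 7.3 to 11 CPM at 3 mo. Ppbp, a platelet chemokine gene, stood at 13.6 CPM in mouse 5 and at 1.81 CPM or less elsewhere, including 0 in mouse 2. Pf4 ranged only from 4.75 to 11.8 CPM over all mice. B cell markers summed to 62.9 to 197.7 CPM in V338Y and 41.7 to 257.1 CPM in the wild type of 19 mo, and to 35.4 to 240.2 CPM at 3 mo, with Cd79a between 0 and 2.31 CPM. T cell markers summed to 3.1 CPM or less in every mouse, with Cd3e at 0.578 CPM or less.

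Mouse 2, with high globin and low Slc4a1, had the highest level of 5 of 8 endothelial and 4 of 8 macrophage markers. Its muscle marker sum of 167091 CPM was the lowest of all 15 mice and the 184381 CPM of mouse 5 the next lowest, against 199683 and 263446 CPM in V338Y mice 4 and 3 and 230282 CPM or more in the other groups. Both mice of high globin thus had the lowest muscle marker sums, and the part of this in the globin levels was not tested. This describes the sum only, as mouse 5 was the highest of all 15 mice for 2 of the 8 muscle markers, Myh2 among them. The endothelial sum of mouse 2 was 505.9 CPM, close to the 515.6 CPM of mouse 5 and the 539.1 CPM of a wild-type mouse of 19 mo, while the macrophage sum was 379.8 CPM against 312.8 to 355 CPM in V338Y mice 3, 4 and 5. Endothelial markers summed to 324.1 to 539.1 CPM in the wild type of 19 mo and 212.6 to 260.2 CPM at 3 mo. Their part in the globin levels was not tested. Myh2, a myosin of oxidative fast fibres, stood at 4876 CPM in V338Y mouse 5 and 4242 CPM in wild-type mouse 5 of 19 mo, and at 875.1 CPM in V338Y mouse 2. Wild-type mouse 5 shared the high Myh2 but not the globin, at 119.9 CPM. The part of fibre type in the globin levels was not tested. Leaving out both mice numbered 5, a choice made after the values were seen, gave a summed globin difference between genotypes of 0.88 ± 0.58 (SE, log2).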

How the data were processed

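Gene counts of quadriceps muscle from 15 mice were used, 1 table per mouse. Per the study's methods and the submitters' processing notes, the authors made stranded libraries, sequenced single ends and used RSEM to make an estimated count per Ensembl gene, which they deposited in whole numbers. STAR 2.4.2a, CASAVA 1.8 and bcl2fastq 1.8.4 are also named, with the mouse build GRCm38, and how the estimates were rounded is not given in the sources used here. RSEM shares reads between near-identical globin copies. Of 39179 identifiers, 37607 matched a symbol, and no table duplicated another. The 6 genes, the gene lists and the alternatives were chosen with earlier results of these data known.

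Levels are CPM of the total after TMM scaling. Genes reaching 10 counts in 50% or more of 1 compared group were fitted with edgeR 4.0.16 (R 4.3.3) on the 2 groups compared, or all 4 for the interaction, with the quasi-likelihood F test and Benjamini-Hochberg adjustment over all fitted genes at 0.05. SE is the absolute log2 fold change over the root of F. The scripts were tested on simulated data. Likeness used log2(CPM + 0.5). Genes were named by rule: the 6 genes, up to 5 list genes with the smallest adjusted p per list and comparison, the 10 genes most like the summed globin, and defining blood cell markers. A few list genes are counted within their lists but not reported here by name. Lists covered late and early erythroid, haem synthesis, other globin, membrane skeleton, clearance and iron, platelet, neutrophil, B cell, T cell, macrophage, endothelial and muscle genes.

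Groups shared mouse numbers. At 19 mo same-numbered mice of both genotypes deviated together (correlations 0.132 to 0.4 over 3 pairs, within the -0.407 to 0.467 of differently numbered mice), and the other comparisons showed no such pattern (-0.162 to 0.141). The numbers mark different animals, so pairing comes only from this check. Alternatives were RLE or upper-quartile scaling, DESeq2 1.42.0, other filters, all mice in 1 fit, a likelihood ratio test, the mouse number as a block and each mouse left out. Totals of 8250653 to 18968132 counts make 3 counts worth 0.172 to 0.345 CPM. Intervals cover counting error only.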

Additional observations from a re-analysis of the deposited data

Results flagged for a closer look

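Of 63 groups of 4 mice examined, 9 held a mouse whose gap to the next exceeded Dixon's 95% critical value as a share of the group's range. No chance rate is set beside these 9, since the groups share mice and the summed globin holds genes that were also examined singly. The globins and Slc4a1 were also selected on their levels in these same mice. The 9 are therefore a description and test nothing. Wild-type mouse 4 of 3 mo was high for Hba-a2 (34.8 CPM against 18.7 to 19.9 CPM in the others), Hbb-bs (198.3 against 92.2 to 105.6 CPM), Hbb-bt (35.1 against 15.6 to 18.6 CPM) and the summed globin (314.6 against 152.7 to 170.9 CPM). The summed globin holds the other 3 genes, so these are not 4 separate events.

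V338Y mouse 5 of 19 mo was high for Slc4a1 (61.1 against 0.401 to 2.61 CPM), for the summed late erythroid genes (486.8 against 260.6 to 299.1 CPM) and for the summed neutrophil markers (685.2 against 6.51 to 32 CPM). V338Y mouse 1 of 3 mo was high for the summed macrophage markers (336.3 against 193.1 to 212 CPM) and the summed endothelial markers (242.5 against 217.6 to 218.3 CPM), while its summed globin of 251.5 CPM lay inside its group. The 3 wild-type mice of 19 mo were too few for this check.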

How the results depend on the processing

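The number of erythroid list genes called stayed at 0 for both genotype comparisons and the interaction under RLE and upper-quartile scaling, DESeq2, both other filters, the likelihood ratio test, the replicate block, a fit of all 15 mice (genotype comparisons only) and each mouse left out (range 0 to 0). Calls over all genes there reached at most 0.795%, at 19 mo with the replicate block. For age in the wild type the 5 calls became 2 with the replicate block, under which 16.3% of all genes were called. With a mouse left out they became 4 to 7, where 24.4% to 34.6% of all genes were called. For age in V338Y the 10 calls became 23 with no filter, where low-count genes enter and 25.3% of all genes were called. With a mouse left out they became 7 to 16. The highest came without V338Y mouse 4 of 19 mo, where 41.6% of all genes were called. The replicate block changed no other count of calls of the erythroid lists by more than 1.5 times. In the wild type it left 1 of 6 age calls in haem synthesis and 3 of 6 in clearance and iron. Calls over all genes there fell from 36.2% to 16.3%. In V338Y it left 1 of 3 in the membrane skeleton, where calls over all genes fell from 46.9% to 39.7%. Same-numbered mice of different ages did not deviate together.

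With 1 mouse left out, the log2 difference in summed globin ran from 0.06 to 0.45 between genotypes at 3 mo, 0.87 to 1.64 at 19 mo, -0.86 to -0.48 between ages in the wild type and -0.05 to 0.72 in V338Y. Without V338Y mice 2 and 5 of 19 mo it was 0.39 between genotypes and -0.53 between ages in V338Y. Scaling, a pseudocount of 5, the ratio of means and the paired mean with the replicate block moved it by less than the pooled SD. That paired mean was 0.00 between ages in V338Y, over 3 pairs. Of 227 fold changes of the 6 genes under these alternatives, 1 moved by more than the pooled SD: Slc4a1 between ages in V338Y, 6.98 in all and 3.64 with the replicate block. In 12 the sign changed or the value rounded to 0.00, all at 3 mo or between ages in V338Y. The number of the 6 genes past an adjusted p of 0.05 ran from 0 to 4 over these alternatives for age in the wild type. There 16.3% to 36.6% of all genes were called. For age in V338Y the number ran from 0 to 2, where 25.3% to 51.2% of all genes were called. The cause was not tested. Slc4a1 could not be fitted between genotypes at 3 mo or between ages in the wild type, nor without V338Y mouse 3 or 5 of 19 mo. Depth limits Slc4a1, Klf1 and Gata1, which held a few counts or none in most mice.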
